A study of Mesocricetus auratus with 24 samples.

Results

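The strain difference after sound was measured by setting 6 arrays of stimulated GASH/Sal hamsters (GASH/Sal S) against 6 arrays of stimulated control Syrian hamsters (Syrian S), 12 of the 24 arrays in the series. The arrays were chosen by their labels alone, and no measured value entered the choice. RNA came from the inferior colliculus (IC) of animals aged 16 weeks. GASH/Sal is a hamster line bred in Salamanca for seizures that follow loud sound, and its stimulated animals had seizures before the tissue was taken 60 min later. Control Syrian hamsters went through the same auditory stimulation. For its own animals, which were younger than those of these labels, the study's methods give no seizures in stimulated controls, and a university colony as the source of GASH/Sal and a commercial breeder as that of Syrian hamsters. Whether this holds for the arrays is not stated, and strain, seizure and source cannot be told apart here. The remaining 12 arrays, 6 of naïve GASH/Sal (GASH/Sal N) and 6 of naïve Syrian hamsters (Syrian N), entered the same fit and gave the strain difference without sound. The labels describe every array as a separate biological replicate, and they name the animals in 2 styles, called series A (replicates 1 to 3) and series B (replicates 4 to 6) here.

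The IC is the midbrain station of the auditory pathway, where nearly all ascending sound information converges, and audiogenic seizures are known to start there. Neurons that fire strongly switch on immediate-early genes, a first wave of transcription that needs no new protein. These genes encode transcription factors such as Fos and the Egr zinc fingers, and effectors that act at synapses or end the signal, such as Arc and the phosphatase Dusp1. A comparison of stimulated GASH/Sal and stimulated Syrian animals after the same sound asks whether this wave, or the transcripts that differ between the lines at rest, separates the strains.

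The probes were designed on mouse sequence and the RNA was of hamster, which is why strain differences are taken only within the same gene. Values are log2 signals, and a percentile places a gene's mean signal among those of all genes tested. Such a rank describes the array signal and may also reflect how well the mouse probes match. Among the 12 arrays, pairwise correlations lay between 0.965 and 0.991. Syrian S replicate 4 stood apart: its mean correlation with the other arrays of its group was 0.969, against 0.983 to 0.985 for the others, and its median signal was 4.65, against 4.54 to 4.59. Main results that rest on it are given with and without it, but other values are given with it only. Without it some of those differences shrank, such as Klf2 (-0.24 to -0.12), Olig1 (-0.26 to -0.15) and Nlgn3 (0.23 to 0.14). Others grew, such as Rasgrf2 (0.23 to 0.27). Among naïve arrays GASH/Sal N replicate 6 stood apart likewise, with a mean correlation of 0.969 against 0.983 to 0.986 for the others of its group. Of 13 measured markers of the IC and dorsal midbrain, the excitatory transporter Slc17a6 (percentile 97.7) and the transcription factors Meis2 (98.8), Tfap2d (93.4) and Sox14 (93.0) were among the brighter genes, while Otx2 (40.7) and Pou4f1 (45.7) lay below the median signal.

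No gene separated the strains after sound once all genes were considered. None of the 19938 genes passed an adjusted p of 0.05 (limma, 0%, lowest adjusted p = 0.887). An unadjusted p under 0.05 was found for 1080 genes (5.42%), where 5% of the genes tested is 996.9. Of these, 363 (1.82%) were higher in GASH/Sal S and 717 (3.6%) were lower, but this split followed the scaling, with 585 higher and 470 lower after median centring and 561 higher and 513 lower after quantile normalisation. Without Syrian S replicate 4 it was 370 higher and 468 lower. Among genes above the median signal in the main fit it was 215 higher and 224 lower, so the all-gene split is not that of the brighter genes. Over all genes the median difference was -0.014 as deposited, 0.010 after centring and 0.004 after quantile normalisation, and list medians are read beside it. Differences ran from -0.67 to 0.69. The 95% interval of a difference reached a median of 0.183 to either side, a factor of 1.14. For 19777 genes (99.2%) the interval lay inside a 1.5-fold difference of signal in either direction, and for 19930 (99.96%) inside a 2-fold one. These bounds apply to the array signal, since the response of mouse probes to hamster transcripts was not measured here.

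**Figure D1:**
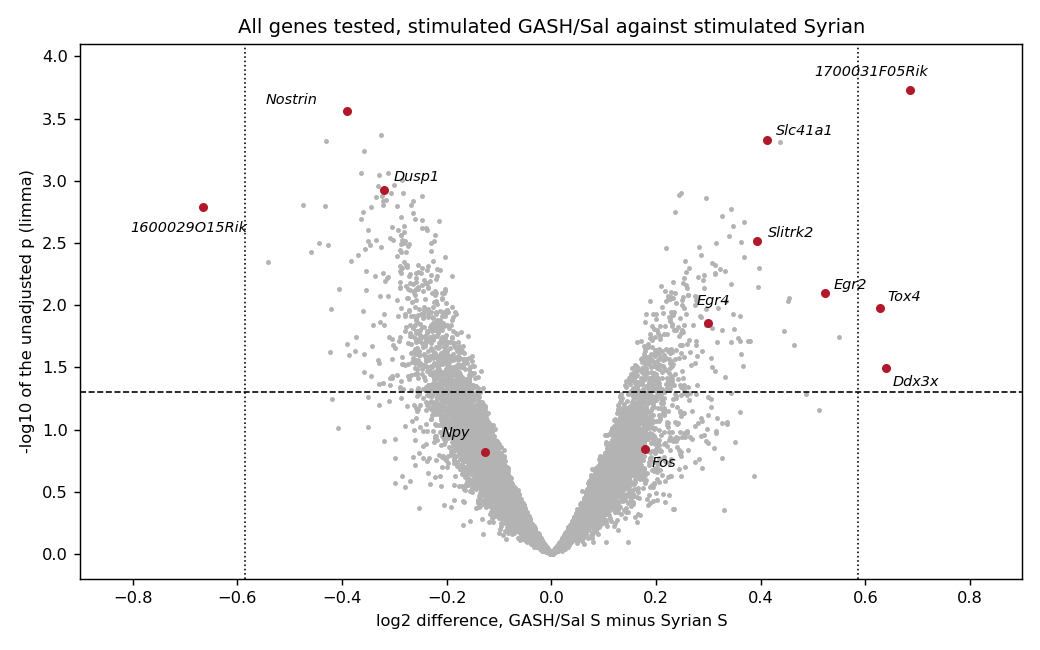
Log2 difference of each of 19938 genes (x axis, GASH/Sal S minus Syrian S) against the negative log10 of its unadjusted limma p (y axis). Dotted lines mark 1.5-fold and the dashed line an unadjusted p of 0.05. The 4 genes beyond both are labelled with 8 others, and 1700031F05Rik has the lowest p (0.000188, adjusted p = 0.887).

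By a rule of 1.5-fold and an unadjusted p of 0.05 or less, 4 genes stood out (0.0201%), and 0 by 2-fold. 1700031F05Rik, a mouse transcript known only by its clone name, lay below the median signal (percentile 36.5). Its signals were 4.44 to 5.23 (median 4.95) in GASH/Sal S and 3.89 to 4.39 (median 4.17) in Syrian S. Every GASH/Sal S array lay above every Syrian S array, with a log2 difference of 0.69 (SE 0.161), 0.67 in series A and 0.70 in series B. Between naïve strains its difference was 0.02. Tox4, a chromatin-binding protein of a phosphatase complex, differed by 0.63 (SE 0.23), and Ddx3x, an X-linked RNA helicase, by 0.64 (SE 0.284). 1600029O15Rik differed by -0.67 (SE 0.192). For each of these 3 genes the groups overlapped, and Syrian S replicate 4 held the extreme value of its group. Ddx3x ran from 9.48 to 9.85 (median 9.80) in GASH/Sal S and from 7.77 to 9.82 (median 9.24) in Syrian S, with 7.77 in replicate 4. Without that array the differences were 0.44 for Tox4, 0.38 for Ddx3x and -0.50 for 1600029O15Rik, and only 1700031F05Rik (0.64) was left past the rule. The count was 2 without GASH/Sal S replicate 1 and 7 without Syrian S replicate 2.

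Among immediate-early transcription factors the largest difference was that of Egr2, followed by Npas4, Fosb and Egr4. Of 28 members measured, 0 passed, 18 were above 0 and the median log2 difference was 0.042, beside 44% above 0 and a median of -0.014 over all genes tested. Unadjusted p was under 0.05 for 2 higher members (Egr2 and Egr4) and 1 lower member (Klf2). Fosb differed by 0.31 (SE 0.154). Fos, Egr1, Junb and Nr4a1, all common activity markers, had smaller values. Fos, which pairs with Jun proteins as AP-1, had 6.29 to 7.03 (median 6.76) in GASH/Sal S and 6.25 to 7.00 (median 6.48) in Syrian S, a difference of 0.18 (SE 0.119). Egr1 differed by 0.00 (SE 0.135), Junb by 0.04 (SE 0.0951) and the orphan receptor Nr4a1 by -0.03 (SE 0.128). Their 95% intervals were -0.06 to 0.42 for Fos, -0.27 to 0.28 for Egr1, -0.15 to 0.24 for Junb and -0.29 to 0.24 for Nr4a1.

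Egr2, a zinc-finger factor induced by strong activity, had the largest difference of the list. Its signals were 6.39, 5.25, 6.41, 6.05, 6.45 and 5.52 in GASH/Sal S replicates 1 to 6, and 5.23, 6.42, 5.11, 5.31, 5.41 and 5.46 in Syrian S replicates 1 to 6. Thus 4 GASH/Sal S arrays lay above 6, while 5 Syrian S arrays lay under 5.5 and Syrian S replicate 2 reached the level of the high GASH/Sal S arrays. GASH/Sal S exceeded Syrian S by 0.52 (SE 0.184, 95% interval 0.15 to 0.90), or by 0.43 within series A and 0.61 within series B, with an unadjusted p of 0.00792 and an adjusted p of 0.887 (limma). It was 0.72 without Syrian S replicate 2 and 0.08 between naïve strains.

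For Npas4, a factor that neurons induce on calcium entry, GASH/Sal S replicate 2 was again the lowest of its group and Syrian S replicate 2 the highest. It ran from 5.05 (replicate 2) to 6.48 (replicate 3) in GASH/Sal S and from 5.16 to 6.33 (replicate 2) in Syrian S, a difference of 0.32 (SE 0.175, unadjusted p = 0.0803) that was 0.19 without GASH/Sal S replicate 3 and 0.49 without GASH/Sal S replicate 2. Syrian S replicate 2 held the highest Fos (7.00), Egr2 (6.42), Egr3 (7.24), Egr4 (6.21) and Npas4 (6.33) of its group, and GASH/Sal S replicates 2 and 6 held the lowest of theirs for Fos (6.38 and 6.29), Egr2 (5.25 and 5.52), Egr3 (6.45 and 6.78) and Npas4 (5.05 and 5.39). For Egr2 the range within GASH/Sal S, 5.25 to 6.45, was thus wider than the difference between the strains.

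Egr4, the remaining member with a positive difference under that p, had 5.91 to 6.54 (median 6.08) in GASH/Sal S and 5.26 to 6.21 (median 5.87) in Syrian S. All 6 GASH/Sal S arrays lay above the Syrian S mean, the groups overlapped, and the difference was 0.30 (SE 0.114, unadjusted p = 0.014, adjusted p = 0.896 by limma). It rested on series B (0.54, against 0.05 in series A), and it was 0.17 without Syrian S replicate 4, the lowest array of its group. Egr3 differed by 0.22 (SE 0.127), with -0.01 in series A and 0.45 in series B. The strain difference of Egr4 after sound exceeded that without sound (-0.17) by 0.47 (SE 0.162, unadjusted p = 0.00725), but no gene passed for this difference of differences (limma, 0 of 19938, 0%, lowest adjusted p = 0.99995), and 734 genes (3.68%) had an unadjusted p under 0.05.

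Among activity-regulated effectors the largest difference ran the other way. Of 29 measured, 0 passed, 18 were above 0 and the median was 0.024, with 0 members higher and 2 lower at an unadjusted p under 0.05. The lower ones were Dusp1, a phosphatase that switches off MAP kinases, and Gem, a small GTPase that restrains calcium channels. Dusp1 had 5.29 to 5.69 (median 5.35) in GASH/Sal S and 5.50 to 6.03 (median 5.67) in Syrian S. Of the 6 GASH/Sal S arrays, 5 lay below every Syrian S array, and the difference was -0.32 (SE 0.0892, unadjusted p = 0.00119, adjusted p = 0.887 by limma). It was -0.33 in series A, -0.31 in series B, -0.34 without Syrian S replicate 4 and -0.05 between naïve strains. Gem differed by -0.20 (SE 0.0829). Arc, which trims synaptic glutamate receptors, differed by 0.07 (SE 0.0838), and Homer1, a scaffold of the postsynaptic density, by 0.11 (SE 0.0964).

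The 5 genes that the study followed up had small differences after sound. Npy, an inhibitory neuropeptide, had 6.63 to 6.85 (median 6.80) in GASH/Sal S and 6.76 to 7.20 (median 6.87) in Syrian S. All 6 GASH/Sal S arrays lay below the Syrian S mean, with a difference of -0.13 (SE 0.0865, 95% interval -0.30 to 0.05), and -0.08 without Syrian S replicate 4, which held 7.20. Rgs2, which shortens G-protein signals, spread from 4.47 to 6.03 in GASH/Sal S and from 4.81 to 5.66 in Syrian S and differed by 0.15 (SE 0.162), or 0.28 in series A and 0.02 in series B. It was 0.01 without GASH/Sal S replicate 1 and 0.30 without GASH/Sal S replicate 6. Ttr, the thyroxine carrier of choroid plexus, was a dim gene (percentile 19.3) and differed by 0.02 (SE 0.0908). Abcb1a, a drug efflux pump of brain vessels, differed by -0.03 (SE 0.111), which splits into 0.17 for series A and -0.23 for series B. Actb, a cytoskeletal reference gene, differed by 0.03 (SE 0.0705).

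**Figure D2:**
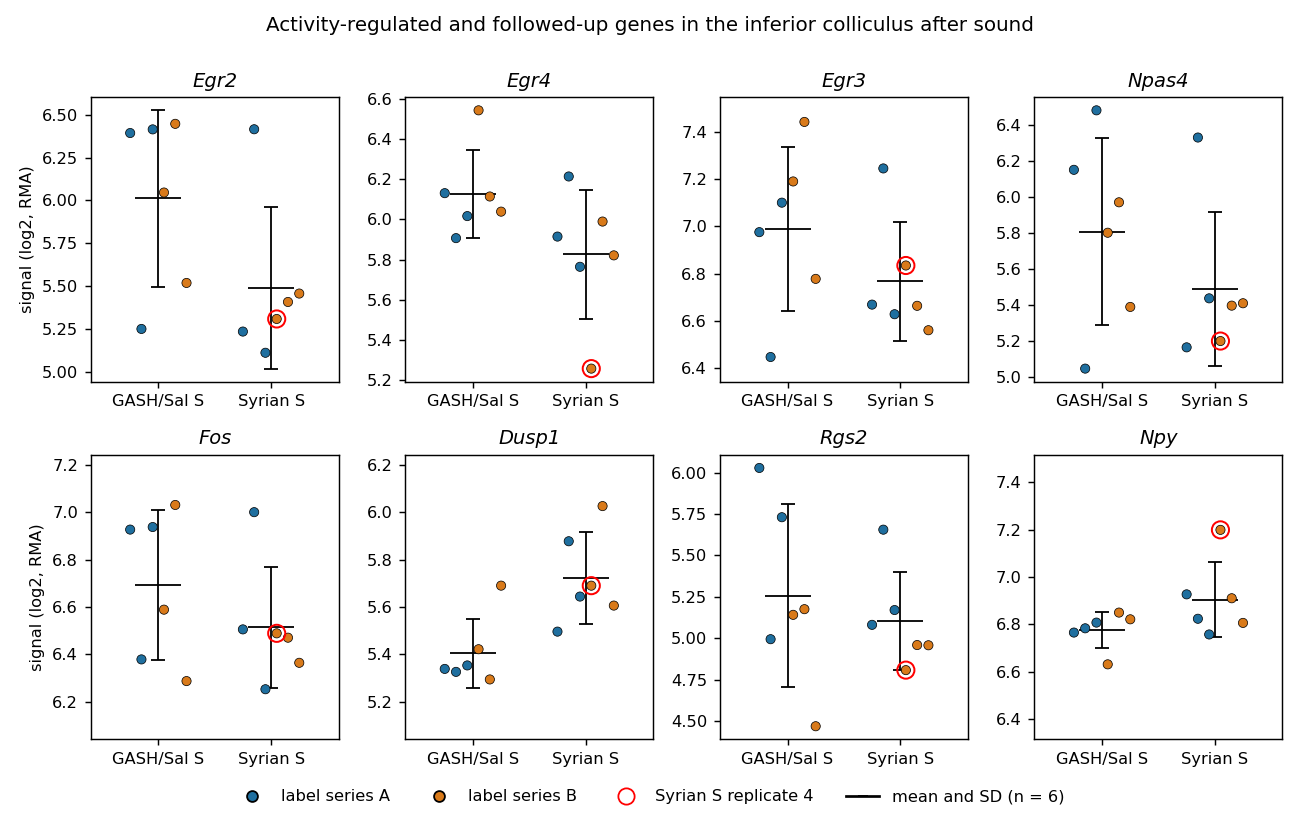
Log2 signal of 8 genes in each array (y axis), with GASH/Sal S left of Syrian S, coloured by label series, and bars for mean and SD (6 arrays each). Egr2 is high in 4 of 6 GASH/Sal S arrays and in 1 Syrian S array, Dusp1 is lower in 5 GASH/Sal S arrays than in any Syrian S array, and Syrian S replicate 4 (ringed) is the lowest array for Egr4 (5.26).

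The 10 genes of lowest p in each direction are described as leads that did not pass, since all 20 had an adjusted p of 0.887 (limma). In each of them all 6 GASH/Sal S arrays lay on the same side of the Syrian S mean, and in 6 of them the groups did not overlap, beside 50 of all genes (0.251%). Because their p-values chose them, these are descriptions.

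Among the higher ones, Slc41a1, a magnesium transporter, had 6.24 to 7.09 (median 6.53) in GASH/Sal S and 5.87 to 6.57 (median 6.12) in Syrian S, a difference of 0.41 (SE 0.105). Its series B arrays were the brighter ones in GASH/Sal S, and the difference was 0.29 in series A and 0.54 in series B. Cebpb, a bZIP transcription factor induced by cytokines and activity, had 6.56 to 6.97 (median 6.67) in GASH/Sal S and 5.86 to 6.50 (median 6.41) in Syrian S. The groups did not overlap for Cebpb, and the difference of 0.37 (SE 0.11) was 0.27 without Syrian S replicate 4, its lowest array. Anapc1, a subunit of the anaphase-promoting ubiquitin ligase, had 5.89 to 6.08 (median 5.96) in GASH/Sal S and 5.63 to 5.79 (median 5.73) in Syrian S, with a difference of 0.25 (SE 0.0697) and no overlap. Nfia, a nuclear factor I protein that drives glial development, differed by 0.30 (SE 0.084) after sound and by 0.21 between naïve strains (unadjusted p = 0.0161). Entpd3, which breaks down extracellular ATP, differed by 0.24 (SE 0.0689), and Mkx, a homeobox factor of tendon, by 0.24 (SE 0.0688) with no overlap. The others were the keratin-associated Krtap5-5 (0.44), Oas1d (0.34) and the olfactory receptor Olfr328 (0.33), members of large mouse gene families whose probes may read relatives. Oas1d was among the dimmest genes (percentile 4.58).

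Among the lower ones, Nostrin, an adaptor that moves endothelial nitric oxide synthase from the membrane, had 3.46 to 3.71 (median 3.54) in GASH/Sal S and 3.75 to 4.36 (median 3.89) in Syrian S. The groups did not overlap, and Nostrin differed by -0.39 (SE 0.095) over all arrays, by -0.37 within series A and by -0.41 within series B. Between naïve strains Nostrin differed by 0.09. Sh3pxd2b, a scaffold of invasive cell protrusions, differed by -0.33 (SE 0.0822), and Snx11, a sorting nexin of endosomes, by -0.33 (SE 0.0893), both on genes above the median signal (percentiles 60.1 and 79.3). Tbxas1, the thromboxane synthase, differed by -0.31 (SE 0.0843), Nt5c3, a pyrimidine nucleotidase, by -0.29 (SE 0.0783) and Myl4, an atrial myosin light chain, by -0.36 (SE 0.098) with no overlap. The remaining genes were 4631405J19Rik (-0.36), Csta2 (-0.43), Cypt3 (-0.33) and Klk1b16 (-0.30). The last 3 lay at percentiles 8.66, 12.8 and 0.843 of signal. Nostrin (21.6), Tbxas1 (32.2), Nt5c3 (15.4), Myl4 (29.5) and 4631405J19Rik (33.4) also lay below the median signal.

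**Figure D3:**
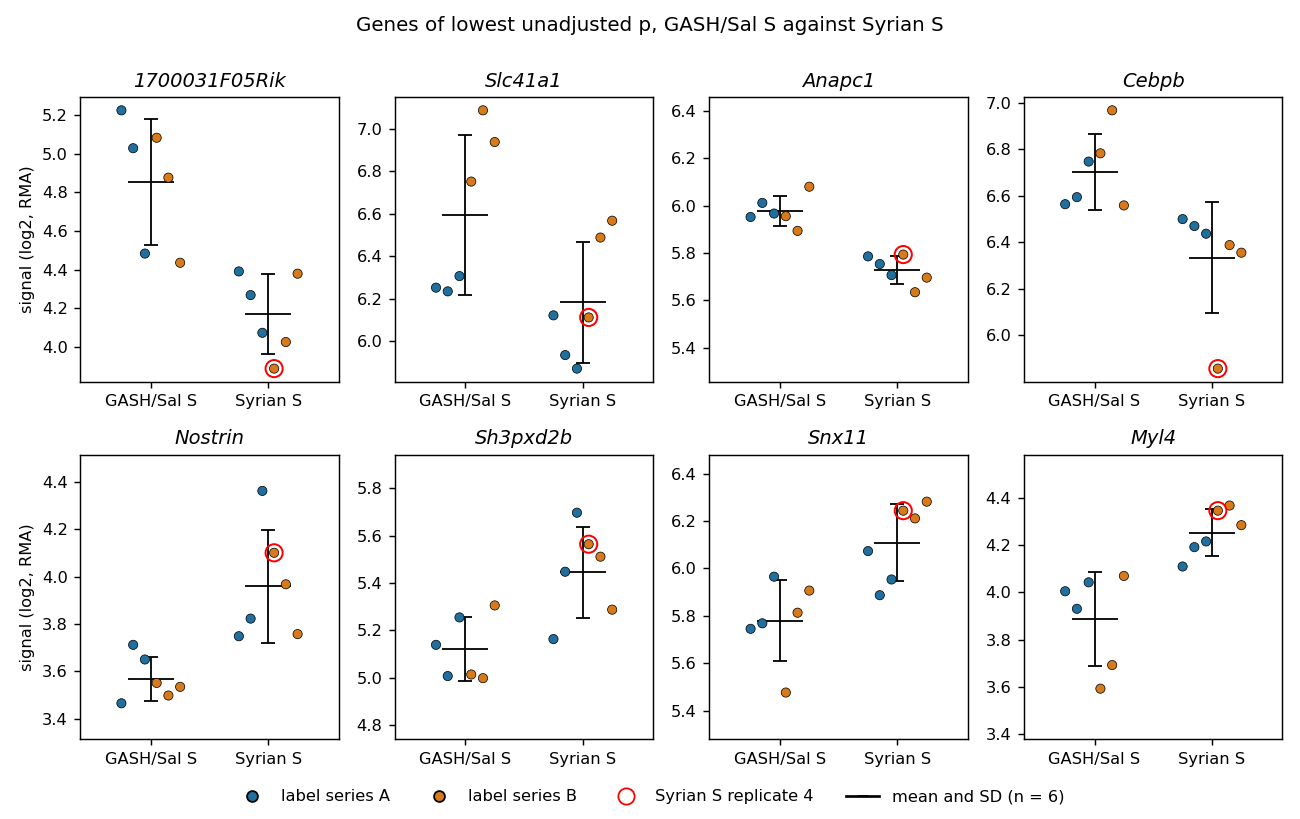
Log2 signal in each array (y axis) for 8 of the 20 genes of lowest p, with GASH/Sal S left of Syrian S, coloured by label series, and bars for mean and SD (6 arrays each). The groups do not overlap for 1700031F05Rik, Anapc1, Cebpb, Nostrin and Myl4, and Syrian S replicate 4 (ringed) is the lowest array for Cebpb (5.86) and for 1700031F05Rik (3.89).

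The groups did not overlap for 25 higher (0.125%) and 25 lower genes (0.125%). This count was not set against chance, and the genes named from it are descriptions. Among the brighter of these, Slc1a2, the main glutamate uptake transporter of astrocytes, averaged 8.34 in GASH/Sal S and 8.14 in Syrian S, a difference of 0.19 that had an unadjusted p of 0.0762. Tef, a clock output factor, averaged 7.44 in GASH/Sal S and 7.25 in Syrian S, and Snx27, an endosomal recycling protein, 7.12 in GASH/Sal S and 6.93 in Syrian S. Slitrk2, a synaptic adhesion protein, had 5.79 to 5.92 (median 5.88) in GASH/Sal S and 5.21 to 5.63 (median 5.51) in Syrian S. Its difference was 0.39 (SE 0.122, adjusted p = 0.887 by limma), 0.33 without Syrian S replicate 4 and 0.03 between naïve strains. Rpl29, a ribosomal protein, averaged 6.57 in GASH/Sal S and 6.73 in Syrian S.

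The strain difference without sound came from the other 12 arrays. The 10 genes of lowest p between GASH/Sal N and Syrian N were taken after their values were seen, and their naïve values are therefore a description. Without sound, 0 of 19938 genes (0%) passed (limma, lowest adjusted p = 0.076), with 1201 genes (6.02%) at an unadjusted p under 0.05. The number passing was 3 without Syrian S replicate 4, which enters the shared error, and 13 without GASH/Sal N replicate 6. Without that naïve array all 10 genes kept their direction without sound. After sound, 9 of the 10 differed in the same direction, beside 57% of all genes tested, and 4 of the 10 had an unadjusted p under 0.05, beside 5.42% of all genes. With the 12 stimulated arrays fitted alone the last count was 3 of 10. Without Syrian S replicate 4 the direction was shared by 8 of 10, and 6 of these had such a p. Olfr678, an olfactory receptor, differed by -0.04 with that array and by 0.02 without it. None of the 10 passed over all genes.

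The 4 genes were Rasgrf2, Arl15, Atp2a3 and Myl12b. Rasgrf2, a calcium-activated exchange factor for Ras, had 5.87 to 6.62 (median 6.24) in GASH/Sal S and 5.82 to 6.30 (median 6.05) in Syrian S. Its groups overlapped, and the difference was 0.23 (SE 0.0891) after sound and 0.48 without sound. Arl15, a small GTPase, had 5.45 to 5.98 (median 5.87) in GASH/Sal S and 5.29 to 5.998 (median 5.48) in Syrian S, a difference of 0.29 (SE 0.101) after sound and 0.50 without. Atp2a3, a calcium pump of the endoplasmic reticulum, had 4.88 to 5.56 (median 5.34) in GASH/Sal S and 5.33 to 6.20 (median 5.50) in Syrian S. It differed by -0.31 (SE 0.106) after sound, -0.21 without Syrian S replicate 4, and -0.45 without sound. Myl12b, a regulatory myosin light chain, differed by -0.15 (SE 0.067) after sound and -0.29 without. Arsb, a lysosomal sulfatase, differed by 0.13 (SE 0.0661) after sound and 0.36 without, and Gstp1, a glutathione transferase, by 0.25 (SE 0.136), 0.11 without Syrian S replicate 4, and 0.66 without sound. Ptpro, a receptor tyrosine phosphatase, differed in the opposite direction, with -0.05 (SE 0.0754) after sound and 0.32 without.

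**Figure D4:**
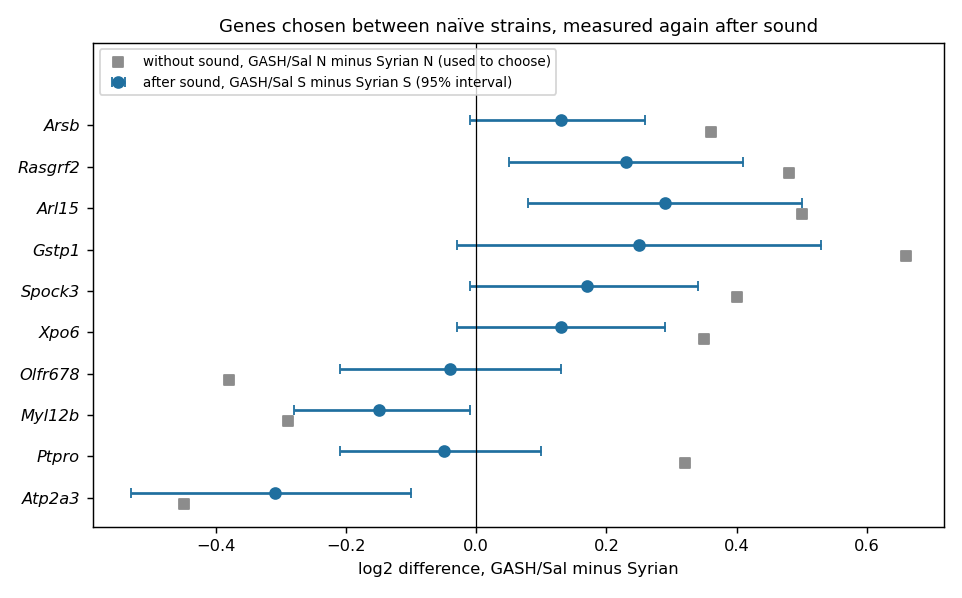
Log2 difference (x axis) after sound, GASH/Sal S minus Syrian S with its 95% interval (circles), and without sound (squares), for the 10 genes of lowest p without sound. In 9 of 10 both points lie on the same side of 0 (Olfr678 only at -0.04), and the interval after sound leaves out 0 for Rasgrf2, Arl15, Myl12b and Atp2a3.

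No member of any of the 40 lists passed over all genes, and lists of neuronal genes lay on both sides of 0. Neuropeptides and granins were above 0 in 10 of 27 (median -0.022), monoaminergic markers in 3 of 9 (median -0.076, and -0.025 without Syrian S replicate 4) and potassium and HCN channels in 19 of 35 (median 0.025). Synaptic adhesion, neuron marker and vesicle release lists had more members above 0. Of 44 synaptic adhesion genes, which join pre- and postsynaptic membranes, 39 were above 0 with a median of 0.082, beside 44% and -0.014 for all genes. Besides Slitrk2, Nlgn3 (0.23, SE 0.107), a postsynaptic neuroligin, and Nrxn3 (0.20, SE 0.0853), its presynaptic partner, had an unadjusted p under 0.05. The mean signal over the 44 genes ran from 6.46 to 6.50 (median 6.49) in GASH/Sal S arrays and from 6.25 to 6.48 (median 6.41) in Syrian S arrays, where 6.25 was replicate 4. Without that array 34 of 44 were above 0 with a median of 0.057, and between naïve strains 33 were, with a median of 0.062 (38 and 0.108 without GASH/Sal N replicate 6). The median was 0.106 after median centring and 0.078 after quantile normalisation.

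Neuron markers were above 0 in 12 of 15 (median 0.095, and 0.047 without Syrian S replicate 4), among them Map2 at 0.20 (SE 0.108). Synaptic vesicle release genes were above 0 in 20 of 29 (median 0.061), led by Syn1 (0.33, SE 0.153) and Sv2b (0.21, SE 0.0793), both proteins of synaptic vesicles. Syn1 differed by 0.04 in series A and 0.62 in series B. Glutamatergic genes were above 0 in 21 of 29 (median 0.055) and GABAergic genes in 14 of 22 (median 0.041, and 0.003 without Syrian S replicate 4). Ras guanine exchange factors were above 0 in 14 of 17 (median 0.052, and 0.032 without Syrian S replicate 4), with Rapgef2 at 0.19 (SE 0.0742). Of 8 glycinergic genes, 3 were above 0. Glra3, a glycine receptor subunit, was the exception in size at 0.55 (SE 0.22). It was 0.03 in series A and 1.07 in series B, 0.39 without Syrian S replicate 4, and 0.78 without sound.

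Clock genes were above 0 in 13 of 17 (median 0.102), with Tef at 0.19 (SE 0.0912) and Ciart, a repressor of the clock, at 0.19 (SE 0.0923). The median was 0.037 without sound, and 0.009 there without GASH/Sal N replicate 6. Calcium pumps and release channels were above 0 in 16 of 21 (median 0.057). In this list Atp2a2, the pump of most neurons, differed by 0.22 (SE 0.0793) and Atp2a3 by -0.31. Of 19 audiogenic and reflex epilepsy genes, 15 were above 0 (median 0.044), with Syn1 as the 1 member under that p. The 11 transcription regulators that the study named had 8 members above 0 and a median of 0.176. This median was 0.056 in series A, 0.110 in series B, 0.137 without Syrian S replicate 4 and -0.082 without sound. With 1 array left out it ran from 0.093 to 0.260. Egr2, Egr4 and Npas4, described above, are among these regulators. The study took these regulators from sequencing of pooled IC RNA of stimulated GASH/Sal and Syrian hamsters. Whether those animals were also on these arrays is not stated, so how independent the direction on the arrays is cannot be said.

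Ribosomal protein genes were below 0 in 43 of 55 (median -0.070), with Rps28 at -0.23 (SE 0.0899), Rps25 at -0.22 (SE 0.0941) and Rpl29 at -0.16 (SE 0.0703). In series A these were -0.02, -0.06 and -0.09, and in series B -0.44, -0.39 and -0.23. Rps28 has 7 probe sets and Rps25 has 6, and only the brightest of each was read. The list median was -0.068 without Syrian S replicate 4 and 0.013 without sound, where it was -0.030 when GASH/Sal N replicate 6 was left out. Oxidative phosphorylation genes were below 0 in 48 of 72 (median -0.034). That median was -0.018 without Syrian S replicate 4, 0.004 in series A and -0.045 in series B. Their member Atp5c1, a subunit of the ATP synthase motor, differed by -0.29 (SE 0.0957) and Uqcrb, of complex III, by -0.25 (SE 0.107), 0.01 in series A and -0.51 in series B. Heat shock chaperones (9 of 15 above 0, median 0.030) and glucocorticoid-responsive genes (7 of 15, median -0.005) lay near all genes.

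Markers of other cell types were looked at beside these lists, because in bulk tissue fewer cells of a type and less RNA per cell cannot be told apart. Oligodendrocyte markers were above 0 in 10 of 13 (median 0.071), with the myelin genes Ugt8a at 0.36 (SE 0.146) and Cldn11 at 0.24 (SE 0.0833) and the progenitor factor Olig1 at -0.26 (SE 0.0985). Astrocyte markers were below 0 in 10 of 12 (median -0.044), microglia markers in 10 of 13 (median -0.040, and -0.023 without Syrian S replicate 4) and inflammation genes in 17 of 20 (median -0.056). The inflammation mean signal ran from 4.47 to 4.59 in GASH/Sal S and from 4.51 to 4.81 in Syrian S, where 4.81 was replicate 4, and its median difference was -0.018 without that array. The astrocyte median after sound was 0.005 in series A and -0.136 in series B. Between naïve strains the medians were 0.024 for oligodendrocyte, 0.052 for astrocyte and 0.007 for microglia markers (-0.021 without GASH/Sal N replicate 6). Inflammation genes there were below 0 in 17 of 20 as well (median -0.087). Medians that depended on Syrian S replicate 4 included those of the markers of neighbouring tissues. With all arrays they were -0.062 for cerebellum, -0.032 for telencephalon, -0.036 for meninges, -0.012 for choroid plexus and ependyma, -0.010 for vessels and -0.030 for the IC and dorsal midbrain. Without that array they were -0.015 for cerebellum, -0.011 for telencephalon, 0.028 for meninges, 0.003 for choroid plexus and ependyma, 0.041 for vessels and -0.011 for the IC and dorsal midbrain. The ranges of mean signal overlapped between the strains in each of these marker lists, and the part of tissue makeup in the list medians was not tested.

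**Figure D5:**
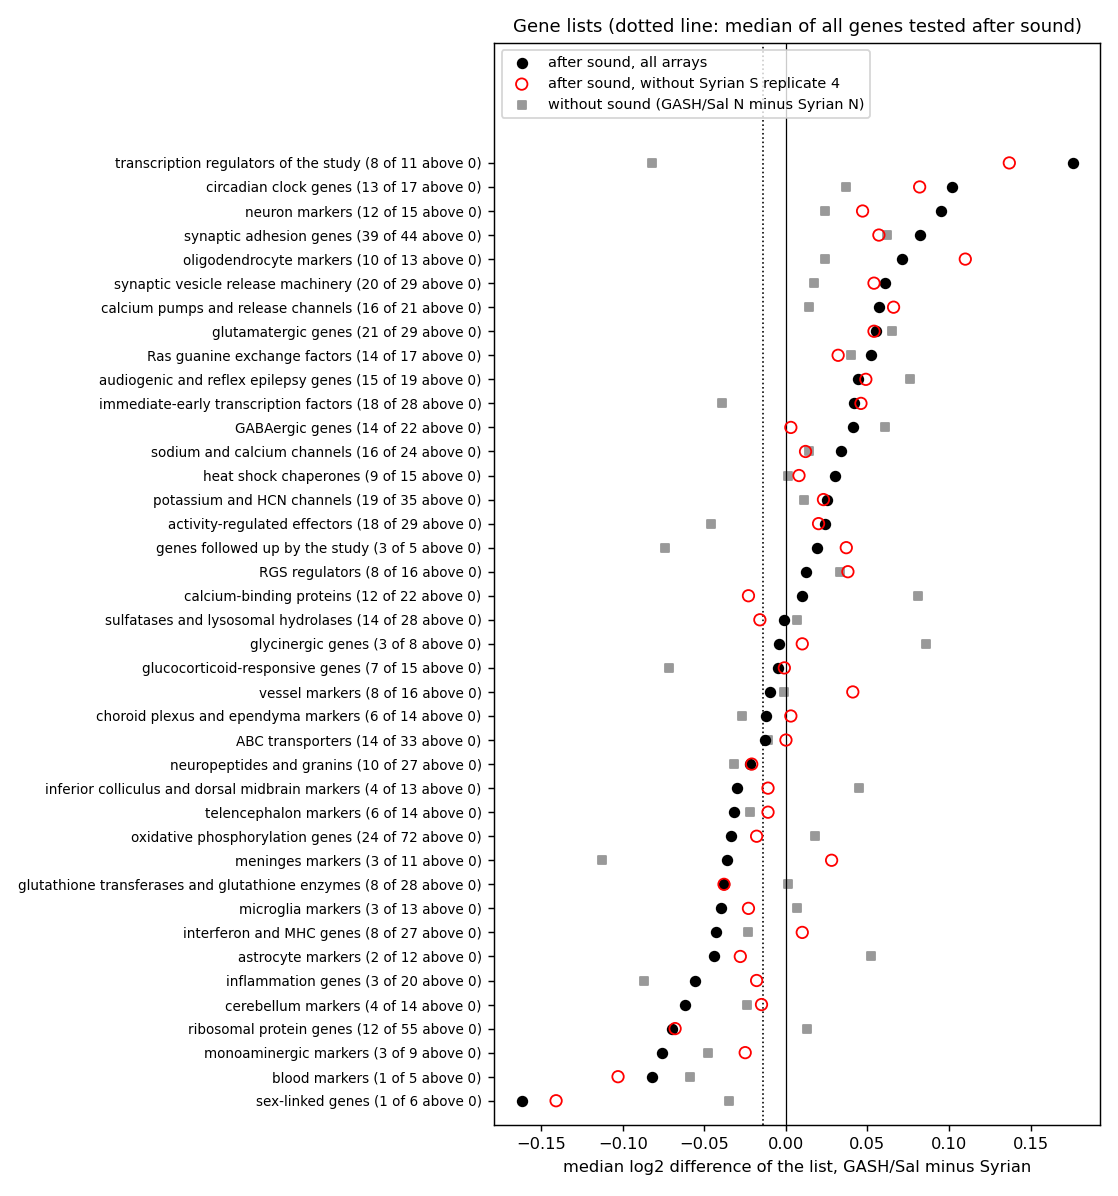
Median log2 difference (x axis) of 40 gene lists (y axis), GASH/Sal minus Syrian, after sound with all arrays (filled circles), after sound without Syrian S replicate 4 (open circles) and without sound (squares). Medians after sound run from -0.162 (sex-linked genes) to 0.176 (regulators chosen by the study), and leaving out 1 array moves that of vessel markers to 0.041 and that of neuron markers to 0.047.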

How the data were processed

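The authors deposited log2 signals per probe set, made by RMA (background correction, normalisation between arrays, summary of probes; of a version the sources do not name). The table held 35556 probe sets in 24 columns, and 0 columns were left out. Arrays give no read depth, so their number limits the precision. Of 21789 probe sets with 1 gene symbol, the brightest per gene was kept (19938 genes, no filter on dim genes). Gapdh shares its probe set with other symbols and has no value here. A limma model (version 3.58.1, R 4.3.3) held the 4 groups and the label series on all 24 arrays (19 residual degrees of freedom), with two-sided p-values adjusted by Benjamini-Hochberg. What p-values reflect is the variation among these animals. The scripts were tested on simulated data. Named genes were the study's genes, 8 activity genes, the 10 lowest p in each direction, and list members past the test, of which there were 0. The 1.5-fold genes, the genes chosen between naïve strains and list members named as examples were chosen after their values were seen. Members and lists were chosen with earlier results of these data known. Neighbouring positions were not analysed here. Alternatives were other scalings, probe set rules, models, label series alone and arrays left out. Counts at unadjusted p, list medians under alternatives and naïve arrays left out were added after seeing the data.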

Additional observations from a re-analysis of the deposited data

Results flagged for a closer look

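In 13 of 96 groups of 6 arrays looked at (13.5%), the highest or lowest array was far from the nearest other one (Dixon's test at 95%), where chance gives about 1 group in 20. Syrian S replicate 4 accounts for 4 of them: its mean correlation with its group was 0.969 (nearest array 0.983), and it held the lowest Cebpb (5.856, nearest 6.355), the highest Atp2a3 (6.197, nearest 5.628) and the highest 1600029O15Rik (5.748, nearest 4.835). Syrian S replicate 2 held the highest Fos (7.001, nearest 6.506), Egr2 (6.415, nearest 5.456), Npas4 (6.331, nearest 5.437) and Arl15 (5.998, nearest 5.530) of its group. The first 3 of these are activity genes, so this animal had a signal like that of the brighter GASH/Sal S arrays in them. Syrian S replicate 6 held the highest Myl12b (5.929). GASH/Sal S replicate 4 held the highest Egr1 (5.850, nearest 5.159), Egr4 (6.543, nearest 6.131) and Olfr678 (5.136), and GASH/Sal S replicate 1 the lowest Cypt3 (2.749).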

How the results depend on the processing

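No gene passed for GASH/Sal S against Syrian S in any of the 24 alternative settings. Among the 47 genes followed through them, the lowest adjusted p by limma was 0.377, with the 12 stimulated arrays alone. Of 1109 values of 47 genes under these settings, 1076 kept their direction and 33, of 10 genes, reversed. Reversals in series A alone were Egr3 (-0.01), Ttr (-0.05), Abcb1a (0.17), Actb (-0.03) and Olfr678 (0.08). In series B alone they were Egr1 (-0.05), Junb (-0.02), Arc (-0.03) and Ptpro (0.01), and with array weights Abcb1a (0.04) and Olfr678 (0.01). With 1 array left out, Egr1 ran from -0.12 to 0.10, Ttr from -0.02 to 0.06, Abcb1a from -0.07 to 0.04, Nr4a1 from -0.12 to 0.07, Junb from -0.01 to 0.09 and Olfr678 from -0.08 to 0.02. The 1.5-fold count ran from 1 (without Syrian S replicate 4) to 7 (without Syrian S replicate 2), and was 0 at 2-fold. Genes passing between naïve strains numbered 2 of the 9969 above the median signal. With an array left out they numbered 3 (without Syrian S replicate 4) to 13 (without GASH/Sal N replicate 6) of 19938. With the 9969 genes above the median signal fitted alone, 447 had an unadjusted p under 0.05 after sound, beside 1080 of all 19938 (5.42%). Of 840 list medians 4 moved by at least the SD of the list's mean signal between arrays of a group: glutathione enzymes to 0.019 in series A, and in series B effectors to -0.034, astrocyte markers to -0.136 and sex-linked genes to -0.287. Smaller moves turned signs: without Syrian S replicate 4 interferon and MHC genes went to 0.010 (-0.043 with it), calcium-binding proteins to -0.023 (0.010 with it) and glycinergic genes to 0.010 (-0.004 with it), beside the meninges, vessel and choroid plexus lists. The cause was not tested. Whether replicate numbers pair the animals is not stated, and deviations from the group means of the stimulated arrays did not settle it. Between strains, correlations of the same number were 0.08 to 0.17, and the own number was highest in 3 of 6. With replicate numbers as a block, 0 genes passed (limma, lowest adjusted p = 0.939) and 1000 of 19938 had an unadjusted p under 0.05. Signals over background were not given, so a dim gene's small difference cannot be told from a lack of signal.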

Other observations

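Some genes had an unadjusted p under 0.05 (limma) both after sound and without it, on arrays that the contrasts do not share. Of the 1080 genes with an unadjusted p under 0.05 after sound, 97 (8.98%) also had one without sound, beside 6.02% of all genes, and 84 of the 97 differed in the same direction (38 higher and 46 lower in GASH/Sal). The direction was shared by 65.9% of the 1080 genes and by 57% of all genes tested. Without GASH/Sal N replicate 6 these were 120 genes (11.1%), beside 8.79% of all genes, with 106 in the same direction. The p-values of a gene share its estimate of the spread, since they come from 1 fit, and no gene passed over all genes in either contrast. The genes named next were chosen after their values were seen and are descriptions. Epha6, an ephrin receptor of developing axons, differed by 0.31 after sound and 0.37 without. Cldn11, the tight-junction protein of myelin, differed by 0.24 after sound and 0.26 without, and Ipo9, a nuclear import receptor, by 0.22 after sound and 0.28 without. Klk1b24, of the kallikrein family, differed by 0.37 after sound and -0.33 without.

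Sex-linked genes were dim on these arrays. Uty, on the Y chromosome of mice, had a percentile of 13.5 and differed by -0.43 (SE 0.134) after sound, and Xist, at percentile 13.8, by -0.22 (SE 0.0787). The labels used here give no sex, and the study's methods, for its own younger animals, call the Syrian hamsters male.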
